A study of Mus musculus with 20 samples.

Results

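The comparison described here is that of C2C12 cells given 100 ng/ml of bone morphogenetic protein 4 (BMP4) with C2C12 cells given 10 ng/ml. The members were the 2 arrays of BMP4 100 ng/ml and the 2 arrays of BMP4 10 ng/ml, 4 of the 20 arrays of the series, and the quantity reported is the log2 signal at 100 minus that at 10 ng/ml, called the step below. C2C12 is a mouse myoblast line, a single line that forms muscle fibres when it differentiates and turns toward osteoblasts under BMP. The series set the effects of BMP4 beside those of small molecules on these cells. The arrays used here came from untreated cells (2 arrays) and cells given methanol (3), taken as a control of 5 arrays, and from cells given recombinant BMP4 at 10 ng/ml (2), 100 ng/ml (2) or 300 ng/ml (2). All were grown in medium with fetal bovine serum in multiwell plates, and how long they were treated is not given in the labels.

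BMP4 binds type I and type II receptors, which phosphorylate SMAD1, SMAD5 and SMAD9, and these enter the nucleus with SMAD4 to switch on targets such as the Id genes and the inhibitory SMADs 6 and 7. In myoblasts BMP signalling is known for blocking muscle differentiation, which depends on the factors MyoD and myogenin, and for starting the osteoblast programme through factors such as osterix (Sp7). BMPs act as morphogens in the embryo, where cells can respond differently to different doses.

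Values are RMA signals on the log2 scale, so a difference of 1 is a doubling, and array medians lay between 4.93 and 5.05. The labels' numbers fall into 2 runs, 10 to 17 and 18 to 29, and each run held 1 array of each BMP4 dose. Replicate 1 is the array of the first run throughout and is given first. All 4 arrays of the step had standard labelling, whereas replicate 1 of 300 ng/ml was labelled by the Affyexpress method and entered no test. The defining muscle markers were high in the control, as the cell type label says: the 7 myoblast markers (Myod1, Myf5, Myog, Des, Cdh15, Mymk and Chrna1) averaged 10.8 to 10.9 per array.

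Replicates of 1 dose differed for some BMP4-responsive genes. At 10 ng/ml, Id1 stood at 9.04 in replicate 1 and 7.04 in replicate 2, against 7.02 to 7.37 in the 5 control arrays, so that replicate 2 lay within the control range. At 100 ng/ml, Alpl stood at 9.53 and 7.19, against 5.24 and 5.02 at 10 ng/ml. With 1 array of each BMP4 dose in each run, a single array that stands apart and a difference between runs cannot be told apart. Over all probe sets, both 100 ng/ml arrays correlated more closely with the 300 ng/ml arrays than with each other: r was 0.993 and 0.987 for replicate 1 and 0.987 with both for replicate 2, against 0.985 between them. Results that rest on 1 of these arrays are given with and without it.

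Of 22180 genes with a symbol of their own, 1408 (6.35%) differed between 100 and 10 ng/ml at an adjusted p under 0.05 by limma, with the run as a block. Of these, 558 were higher at 100 ng/ml (2.52% of the genes tested) and 850 lower (3.83%), so that 39.6% of the calls were rises. With arrays centred on their medians the rises were 29.1% of the calls (314 against 764 falls). Without replicate 1 of 10 ng/ml they were 55% (823 against 674 falls), so that rises outnumbered falls. A step of at least 1 in size was reached by 119 rises and 202 falls. The 2 arrays of each dose did not overlap for 1378 of the 1408, and all 1408 had the same sign in both runs, both properties that the call itself favours. The same shares over all genes tested are not given, so these counts add no evidence to the calls. With control arrays as the zero level, 3937 genes (17.8%) were called at 100 ng/ml and 958 (4.32%) at 10 ng/ml. At 100 ng/ml 1848 were higher and 2089 lower than control, and at 10 ng/ml 448 were higher and 510 lower. Without replicate 1 of 100 ng/ml, 529 genes were called in the step and 2365 at 100 ng/ml. Without replicate 1 of 10 ng/ml, 602 were called at 10 ng/ml. The 10 ng/ml arrays enter the change at 10 and the step with opposite signs, so an error in them moves both.

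Called genes were sorted by where their change lay. A gene was taken to need more than 10 ng/ml when the step and the change at 100 ng/ml were called in the same direction and the change at 10 ng/ml was not called and at most 25% of that at 100 ng/ml. By this rule 811 genes needed more than 10 ng/ml, 309 of them raised and 502 lowered. The rule sets no limit on the interval of the change at 10 ng/ml. In 680 of the 811 that 95% interval lay under 50% of the change at 100 ng/ml. For the rest a larger part at 10 ng/ml was not excluded. Another 243 genes changed in 2 stages, with both the change at 10 ng/ml and the step called in the same direction (106 raised and 137 lowered), and in 78 of them the larger part lay at 10 ng/ml. In 60 genes the step was called against the direction of the change at 10 ng/ml (22 upwards and 38 downwards). The remaining 294 met none of these rules, 216 because the part already present at 10 ng/ml was above the limit and 78 because neither dose was called against the control. A change at 10 ng/ml counted as full when it was called, at least 1 in size, and the whole 95% interval of the step lay within 50% of it, which held for 48 genes (14 raised and 34 lowered). The classes are made from these arrays and carry no test of their own. The 2-stage group held 157 genes without methanol replicate 1, 157 without replicate 1 of 100 ng/ml, and 115 and 156 without replicate 1 and replicate 2 of 10 ng/ml.

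**Figure D1:**
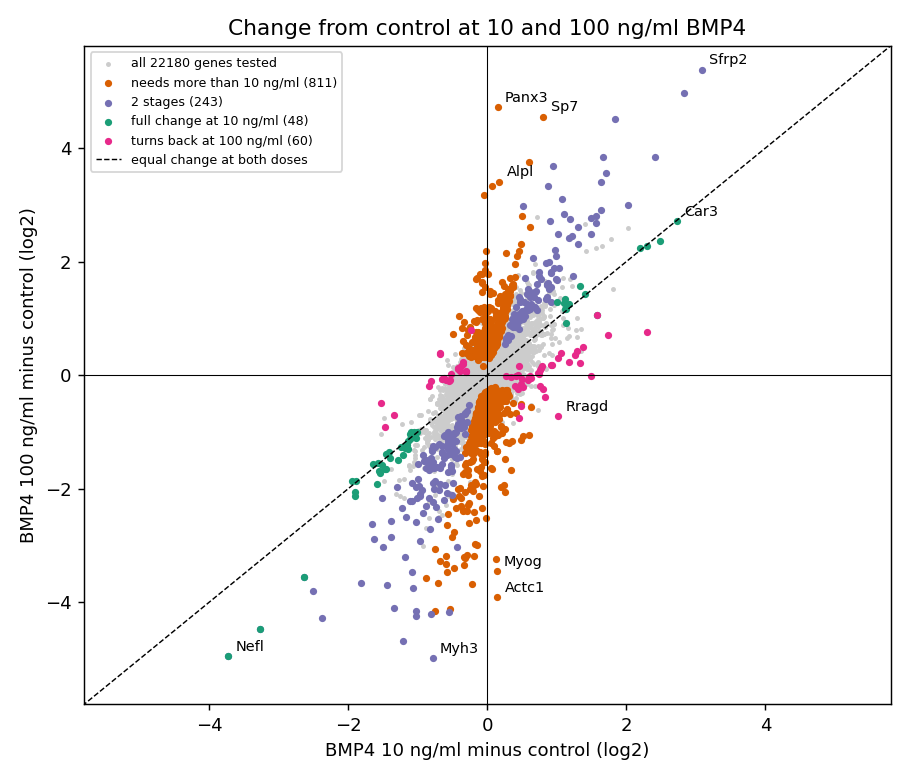
Change from control at 10 ng/ml (horizontal) and at 100 ng/ml (vertical) on the log2 scale, 1 point per gene, with the classes in colour and grey for all other genes tested. Panx3, Sp7, Alpl, Myog and Actc1 stand near the vertical axis, Car3 near the diagonal of equal change, and Sfrp2, Nefl and Myh3 off zero on both axes.

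The members just inside and outside the limits show how sharp these borders are. Mir3066 was called in the step at an adjusted p of 0.04992 and C1rl was not at 0.05014. The call of Mir3066 was lost in every omission of 1 array except that of replicate 2 of 10 ng/ml, with adjusted p from 0.0592 to 0.279. Fam3c had 24.89% of its change at 10 ng/ml and Clic5 stood just over the limit of 25%. Ecm2 counted as full with an interval reaching 49.87% of its change at 10 ng/ml, and Slc1a3 did not with 52.44%.

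Genes of the osteoblast programme were among those with some of the largest rises, and few of them were called at 10 ng/ml. Panx3, a pannexin channel of osteoblasts and chondrocytes, stood at 4.13 to 4.58 in the control, 4.59 and 4.33 at 10 ng/ml, 9.69 and 8.38 at 100 ng/ml and 9.95 and 10.27 at 300 ng/ml. Both 100 ng/ml arrays lay far above both 10 ng/ml arrays, which sat near the control level. The step was 4.57 (SE 0.24, adjusted p = 4.01e-07 by limma), a 23.8-fold difference.

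Sp7, which encodes the osteoblast transcription factor osterix, stood at 4.06 to 4.45 in the control, 5.76 and 4.65 at 10 ng/ml, 9.87 and 8.03 at 100 ng/ml and 10.43 and 10.40 at 300 ng/ml. Replicate 1 of 10 ng/ml was clear of the control and replicate 2 only just above it, and the mean change at 10 ng/ml was not called (0.81, adjusted p = 0.25). The step was 3.74 (SE 0.39, adjusted p = 1.08e-04), or 13.4-fold. Alpl, the alkaline phosphatase that marks osteoblasts, stood at 4.68 to 5.18 in the control, 5.24 and 5.02 at 10 ng/ml, 9.53 and 7.19 at 100 ng/ml and 10.33 in both arrays of 300 ng/ml. Its 2 arrays at 100 ng/ml differed by more than 2 units while the pair at 300 ng/ml agreed. The step was 3.23 (SE 0.44, adjusted p = 7.11e-04), and 2.10 without replicate 1 of 100 ng/ml. A dimmer probe set of Alpl gave 1.35.

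The window around the first start of Alpl is shown because it held 2 of the 4 motifs searched in all promoters; the window of the other start of Alpl held none. It is the RefSeq sequence (GRCm38.p6) at chr4:137796335-137796634, minus strand, from 250 bases before to 50 after the start, and the capitals mark the E-box CAGCTG and GGCGCC, a GC-rich motif that BMP SMADs can bind.
Alpl: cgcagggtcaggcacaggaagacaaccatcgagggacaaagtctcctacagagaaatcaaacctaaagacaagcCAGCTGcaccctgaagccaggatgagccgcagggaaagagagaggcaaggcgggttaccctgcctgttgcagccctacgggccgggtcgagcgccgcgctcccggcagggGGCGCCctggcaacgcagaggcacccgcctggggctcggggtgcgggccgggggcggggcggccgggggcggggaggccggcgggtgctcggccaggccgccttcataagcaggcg
GGCGCC was in the windows of 25.3% of the raised genes that needed more than 10 ng/ml (59 of 233 with a sequence) and of 28.9% of the lowered ones (112 of 387), against 17.5% of all genes tested with a sequence (2972 of 16990). It reads the same on both strands, and a match describes the letters only.

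Of 23 measured genes of osteoblast transcription and mineralization, 9 rose and 2 fell in the step, against 2.52% and 3.83% of all genes. Besides Panx3, Sp7, Alpl and Pth1r these were Bglap (osteocalcin, 1.60), Col1a1 (1.08) and Col1a2 (1.07), the chains of type I collagen, Tnfrsf11b (osteoprotegerin, 0.95) and Runx3 (0.55), while Dmp1 (-0.78) and Runx1 (-0.40) fell. The steps of Tnfrsf11b (0.70, adjusted p = 0.126), Runx3 (0.52, adjusted p = 0.125) and Dmp1 (-0.78, adjusted p = 0.0682) were not called without replicate 1 of 100 ng/ml. Runx3 was not called without replicate 2 of 10 ng/ml either (0.51, adjusted p = 0.0599). Runx1 was not called without replicate 2 of 10 ng/ml (-0.28, adjusted p = 0.111) or of 100 ng/ml (-0.29, adjusted p = 0.127). At 10 ng/ml 1 member of the list had risen and 3 had fallen (Ank, Slc20a1 and Runx1), against 448 and 510 of all 22180 genes. The raised one was Phex, a protease of phosphate balance in bone, with 8.15 and 6.72 at 10 ng/ml against 5.43 to 5.96 in the control (1.80, and 1.0 without replicate 1 of 10 ng/ml). Pth1r, the receptor of parathyroid hormone, stood at 7.48 and 5.93 at 100 ng/ml, against 5.02 and 4.96 at 10 ng/ml. Its step was 1.71 (adjusted p = 0.00286), and 1.01 without replicate 1 of 100 ng/ml. Runx2 was not analysed here.

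**Figure D2:**
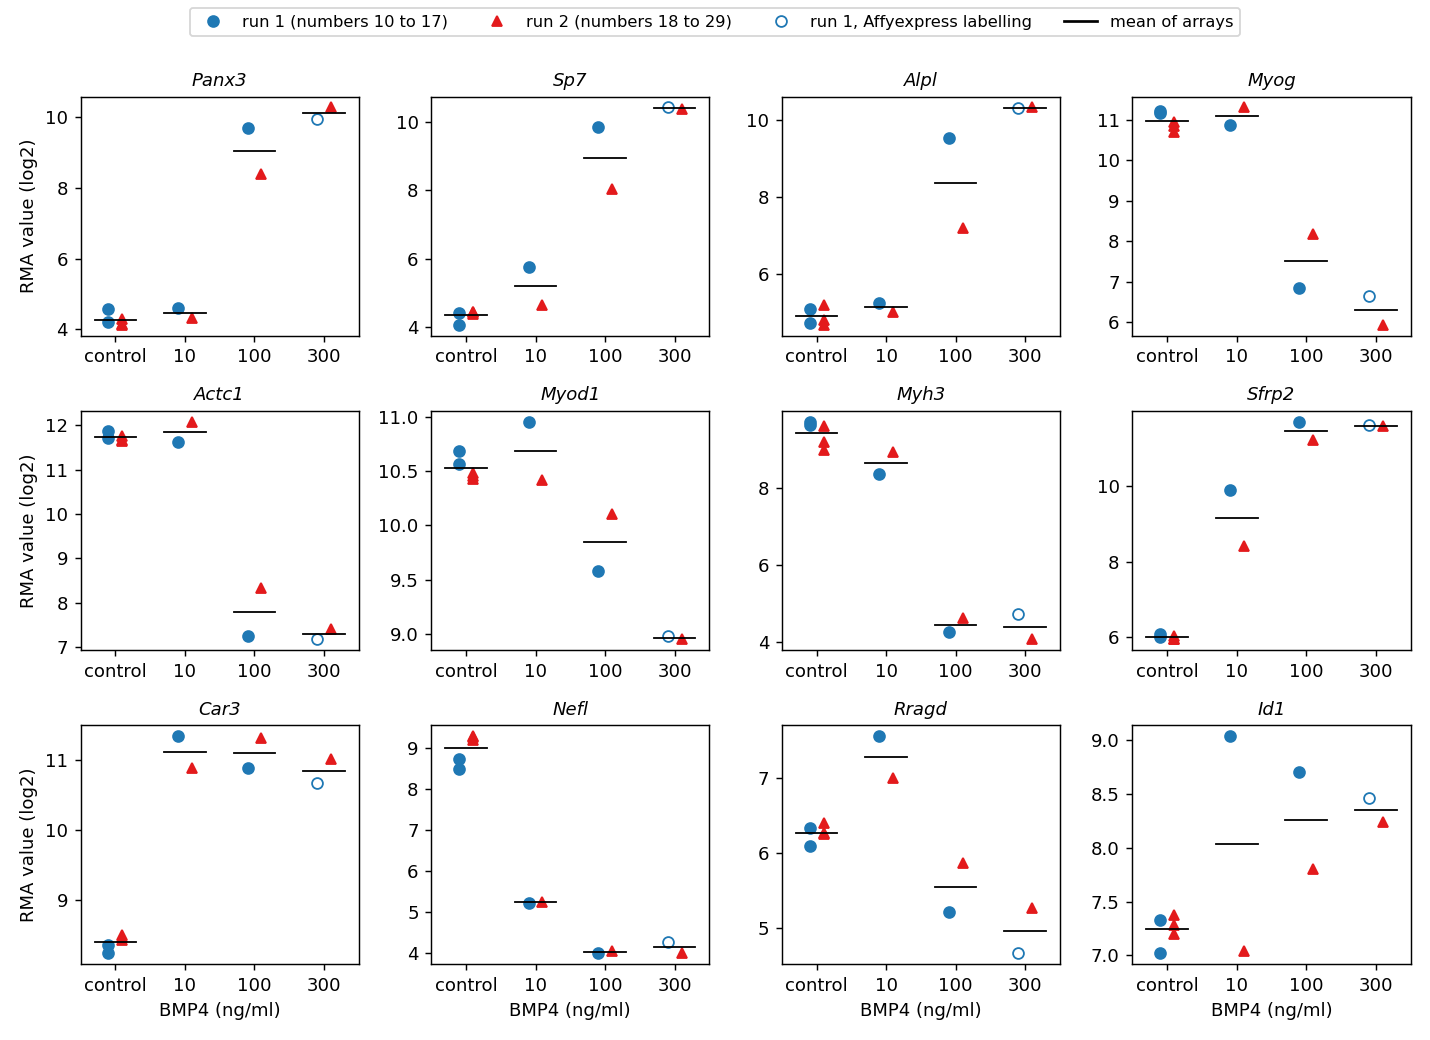
RMA signal (log2) of 12 genes in the control, 10, 100 and 300 ng/ml BMP4 arrays, with circles for the first run, triangles for the second, an open circle for the Affyexpress-labelled array and a bar at each mean. Panx3, Sp7 and Alpl rise and Myog and Actc1 fall between 10 and 100 ng/ml, Car3 has its full change at 10 ng/ml, Rragd turns back, and the 2 Id1 arrays at 10 ng/ml stand apart at 9.04 and 7.04.

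Other genes with large steps also needed more than 10 ng/ml. Krt14, a keratin of basal epithelium, stood at 9.61 and 8.43 at 100 ng/ml, against 6.44 and 5.30 at 10 ng/ml, and its step was 3.15 (SE 0.29, adjusted p = 3.72e-05). The 5 epithelial markers fixed as a list (Epcam, Cdh1, Krt8, Krt18 and Cldn4) gave no call in the step by limma, and none had an unadjusted p under 0.05 (0 of 5). They averaged 5.02 to 5.13 per array at 100 ng/ml and 4.90 to 5.10 at 10 ng/ml. Krt16, another keratin, read 7.58 and 4.97 at 100 ng/ml, against 3.95 and 4.18 at 10 ng/ml. Its step of 2.21 (adjusted p = 0.0171) was no longer called without replicate 1 of 100 ng/ml (0.87, adjusted p = 0.0527) or of 10 ng/ml (1.71, adjusted p = 0.147). Bpifb1, a member of the secreted BPI-fold family, had a step of 3.26 (adjusted p = 5.53e-05). Tnn, the matrix glycoprotein tenascin-N, stood at 10.32 and 7.22 at 100 ng/ml, against 5.57 and 5.52 at 10 ng/ml, with a step of 3.22 (SE 0.56, adjusted p = 0.00417) that was 1.70 without replicate 1 of 100 ng/ml. Nkd2, an inhibitor of Wnt signalling, had 7.83 and 7.33 at 100 ng/ml, against 5.92 and 5.43 at 10 ng/ml (step 1.90, adjusted p = 2.12e-05).

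The feedback genes of the pathway gave smaller steps. Of 27 measured BMP and SMAD targets, 7 rose in the step and none fell (Dlx2, Unc5b, Smad6, Dlx5, Bambi, Smad7 and Msx2), and 3 rose and 2 fell at 10 ng/ml. Over all 22180 genes 2.52% rose and 3.83% fell in the step, and 448 rose and 510 fell at 10 ng/ml. Unc5b, a netrin receptor, stood at 10.30 and 9.36 at 100 ng/ml, against 8.89 and 8.22 at 10 ng/ml, a step of 1.28 (SE 0.18, adjusted p = 9.93e-04). Smad7, an inhibitory SMAD, stood at 6.87 to 7.02 in the control, 7.50 and 6.5 at 10 ng/ml, 8.72 and 7.50 at 100 ng/ml and 8.81 and 8.91 at 300 ng/ml. Replicate 2 of 100 ng/ml equalled replicate 1 of 10 ng/ml to 2 decimals. Its step of 1.11 (adjusted p = 0.0174) was not called without replicate 1 of 100 ng/ml (0.66, adjusted p = 0.28) or replicate 2 of 10 ng/ml (0.80, adjusted p = 0.144). Smad6, the other inhibitory SMAD, changed in 2 stages, by 1.22 at 10 ng/ml (adjusted p = 0.0088) and by a step of 1.23 (adjusted p = 0.0182). The change at 10 ng/ml was 0.77 (adjusted p = 0.201) without replicate 1 of that dose. The step was 0.84 (adjusted p = 0.273) and 0.76 (adjusted p = 0.161) without replicate 1 of 100 ng/ml and replicate 2 of 10 ng/ml.

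The homeobox genes Dlx5 and Dlx2 stood higher at 100 ng/ml mainly in replicate 1. Dlx5, a BMP-induced regulator of osteoblasts, stood at 5.72 and 4.08 at 100 ng/ml, against 3.87 and 3.67 at 10 ng/ml, and at 6.37 and 6.18 at 300 ng/ml. Its step of 1.13 (adjusted p = 0.041) lost its call in 11 of the settings tried, which included leaving out either array of 10 ng/ml (0.92 and 1.34) or replicate 1 of 100 ng/ml (0.41, adjusted p = 0.502). Dlx2 had a step of 1.34 (adjusted p = 0.0305) and of 0.50 (adjusted p = 0.328) without replicate 1 of 100 ng/ml. It was 1.41 (adjusted p = 0.0927) and 1.27 (adjusted p = 0.129) without replicate 1 and replicate 2 of 10 ng/ml. Msx2 had a step of 0.66 (adjusted p = 0.0275) that kept its size but not its call without any one of the 4 arrays of the step (0.60 to 0.72, adjusted p = 0.0612 to 0.241).

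The Id genes, direct SMAD targets that bind the partners of MyoD, were not called in the step. Id1 stood at 8.71 and 7.80 at 100 ng/ml, against 9.04 and 7.04 at 10 ng/ml. The step was therefore downwards in the first run (-0.33) and upwards in the second (0.76), with a mean of 0.22 and a 95% interval from -0.60 to 1.04 (adjusted p = 0.843). Id2 stood at 10.04 and 9.74, against 10.27 and 8.95, and its mean step was 0.28 (adjusted p = 0.74). Id3 stood at 10.32 and 9.39, against 10.08 and 8.82, and its mean step was 0.41 (adjusted p = 0.482). Without replicate 1 of 10 ng/ml the steps were 1.12, 1.07 and 0.91 and all were called (adjusted p = 0.0309, 0.0125 and 0.0468), and without replicate 2 they were -0.69, -0.50 and -0.10 and none was. Smad9, which encodes 1 of the SMADs that transmit the BMP signal, had risen by 0.91 at 10 ng/ml (adjusted p = 0.0066), or 0.66 (adjusted p = 0.136) without replicate 1 of that dose. Its step was 0.61 (adjusted p = 0.101) and 0.87 (adjusted p = 0.0387) without replicate 1 of 10 ng/ml.

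Among 26 BMP ligands, receptors and SMADs, 3 rose and 3 fell in the step, against 2.52% and 3.83% of all genes. Bmp4 itself had 8.30 and 8.83 at 100 ng/ml, against 7.62 and 7.02 at 10 ng/ml and 8.16 and 7.80 at 300 ng/ml. Its step of 1.24 (adjusted p = 0.00412) was 0.98 (adjusted p = 0.0548) without replicate 2 of 10 ng/ml and 0.78 without replicate 2 of 100 ng/ml. Inhba, the activin A subunit, rose by 1.08 (adjusted p = 0.00211), and Bmp1, a procollagen protease, by 0.38. The co-receptor Rgmb fell by 0.84 (adjusted p = 3.18e-04), with 7.80 and 8.01 at 100 ng/ml against 8.58 and 8.91 at 10 ng/ml. The receptor Acvr2a fell by 0.58. Bmp1 was not called without replicate 1 of 100 ng/ml (0.36, adjusted p = 0.0756), nor Acvr2a without it (-0.45, adjusted p = 0.207) or without replicate 1 of 10 ng/ml (-0.40, adjusted p = 0.122). Tgfbr3, a co-receptor of the family, fell by 0.85 (adjusted p = 0.00961), and by 0.57 (adjusted p = 0.172) without replicate 1 of 100 ng/ml.

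**Figure D3:**
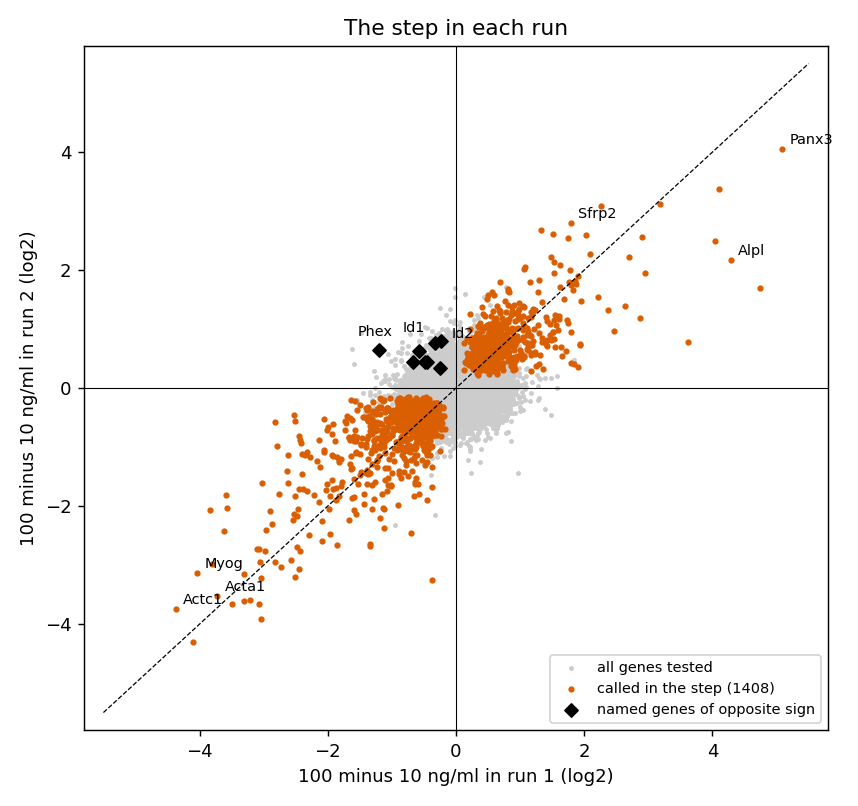
The step in the first run (horizontal) against the second (vertical) on the log2 scale, 1 point per gene, with genes called in the step in orange and the line of equal steps dashed. All 1408 called genes have the same sign in both runs, which the call itself favours, and Id1, Id2 and Phex are among the marked genes of opposite sign.

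Many muscle genes fell in the step, and Myog, Myod1 and Myf5 were not called lower at 10 ng/ml. Myog, which encodes the differentiation factor myogenin, stood at 10.69 to 11.22 in the control, 10.87 and 11.30 at 10 ng/ml, 6.83 and 8.17 at 100 ng/ml and 6.64 and 5.94 at 300 ng/ml. At 10 ng/ml replicate 1 lay within the control range and replicate 2 just above it, and both 100 ng/ml arrays lay far below. The step was -3.59 (SE 0.30, adjusted p = 1.88e-05). Myod1, the myoblast determination factor, stood at 9.58 and 10.10 at 100 ng/ml, against 10.95 and 10.42 at 10 ng/ml. Its step of -0.84 (adjusted p = 0.0093) was -0.56 (adjusted p = 0.0984) without replicate 1 of 10 ng/ml and -0.44 (adjusted p = 0.0808) without replicate 1 of 100 ng/ml. Myf5, its relative in determination, was raised at 10 ng/ml (0.49, adjusted p = 0.017; 0.28, adjusted p = 0.283, without replicate 1 of that dose and 0.44, adjusted p = 0.0526, without methanol replicate 1) and turned back at 100 ng/ml, with 9.17 and 9.11 against 9.94 and 9.61 at 10 ng/ml. Its step of -0.64 (adjusted p = 0.00793) was -0.42 (adjusted p = 0.0684) without replicate 1 of 10 ng/ml.

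In all, 20 of 34 measured myogenic transcription genes fell in the step and none rose, against 3.83% and 2.52% of all genes. Their median step was -0.58, against 0.04 over all genes. At 10 ng/ml 7 of the 34 had fallen and 5 had risen, against 510 and 448 of all 22180 genes, and 1 of the 34 was at full change. The 7 that had fallen are not listed here. The 5 that had risen were Eya4 (1.12), Sox8 (0.80), Myf6 (0.79), Myf5 (0.49) and Eya1 (0.35), all regulators of the myogenic lineage. Of these Eya4 kept its call whichever array was left out. Myf6 (0.27, adjusted p = 0.506) and Eya1 (0.25, adjusted p = 0.227) were not called without replicate 1 of 10 ng/ml, and Myf6 was not called without any one of the 5 control arrays either (adjusted p = 0.0527 to 0.108). Sox8 was not called without replicate 2 of 10 ng/ml (0.28, adjusted p = 0.319), untreated replicate 2 (adjusted p = 0.0554) or methanol replicate 2 (adjusted p = 0.0591). Rbm24, an RNA-binding protein of muscle splicing, had 5.53 and 5.75 at 100 ng/ml, against 8.60 and 9.41 at 10 ng/ml (step -3.37, adjusted p = 6.2e-06). Heyl, a Notch target, fell by 2.22 (adjusted p = 0.00141) and Smyd1, a muscle methyltransferase, by 2.17 (adjusted p = 6.2e-06). Mef2c, a cofactor of the MyoD family, had a step of -0.77 (adjusted p = 0.0159), which was not called without replicate 2 of 10 ng/ml (-0.55, adjusted p = 0.129) or without replicate 1 (-0.75, adjusted p = 0.125) or 2 (-0.80, adjusted p = 0.0613) of 100 ng/ml.

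The contractile genes fell with them. Of 40 genes of the thin filament, Z-disc and titin, 27 fell in the step and none rose, against 3.83% and 2.52% of all genes. Their median step was -1.15. At 10 ng/ml 13 of the 40 had already fallen, against 510 of all 22180 genes. Of the 40 genes 15 needed more than 10 ng/ml and 9 fell in 2 stages. Actc1, the cardiac actin that immature muscle also makes, stood at 11.64 to 11.88 in the control, 11.62 and 12.07 at 10 ng/ml, 7.25 and 8.33 at 100 ng/ml and 7.18 and 7.40 at 300 ng/ml. None of its fall was present at 10 ng/ml, and the step was -4.06 (SE 0.22, adjusted p = 4.01e-07). Acta1, the skeletal actin, stood at 11.73 to 12.08 in the control, 11.28 and 11.50 at 10 ng/ml, 7.56 and 7.98 at 100 ng/ml and 6.70 and 7.15 at 300 ng/ml. Both 10 ng/ml arrays lay below the control range, so that it fell in 2 stages, by 0.55 at 10 ng/ml (adjusted p = 0.013; -0.44, adjusted p = 0.199, without replicate 1 of that dose) and by a further 3.63 in the step (adjusted p = 1.9e-08). The troponins Tnnc1 and Tnnt3 also fell in 2 stages, with steps of -3.41 and -3.13. Ttn, the giant spring protein titin, had 5.91 and 7.71 at 100 ng/ml, against 9.53 and 10.13 at 10 ng/ml (step -3.02, adjusted p = 1.08e-04).

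Of 27 myosin genes, 13 fell in the step and none rose (median -0.66), and 5 had fallen at 10 ng/ml. Over all 22180 genes 3.83% fell and 2.52% rose in the step, and 510 had fallen at 10 ng/ml. Myh3, the embryonic myosin heavy chain, stood at 8.98 to 9.71 in the control, 8.35 and 8.93 at 10 ng/ml, 4.25 and 4.62 at 100 ng/ml and 4.72 and 4.08 at 300 ng/ml. The change at 10 ng/ml was called narrowly (-0.79, adjusted p = 0.048) and lost its call without replicate 1 of 10 ng/ml (-0.43, adjusted p = 0.512), untreated replicate 1 or methanol replicate 1 or 2 (adjusted p = 0.102 to 0.129). The step was -4.20 (SE 0.24, adjusted p = 7.75e-07). Mylpf, a fast regulatory light chain, had 5.85 and 6.24 at 100 ng/ml, against 9.34 and 9.91 at 10 ng/ml (step -3.58, adjusted p = 3.5e-07). Myh1, an adult fast heavy chain, fell by 2.85. Myh4, another of them, was an exception, with its whole fall at 10 ng/ml (4.66 and 4.46 at 100 ng/ml, 4.59 and 4.50 at 10 ng/ml and 6.09 to 6.90 in the control).

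The promoter windows of 3 of these muscle genes are shown, since Actc1, Myog and Mylpf fell together and each holds 1 or more of the motifs searched. They are RefSeq sequences (GRCm38.p6) at chr2:114052826-114053125, minus strand (Actc1), chr1:134289754-134290053, plus strand (Myog), and chr7:127211358-127211657, plus strand (Mylpf). Capitals mark a CArG box, the site of serum response factor, in Actc1, and the E-box CAGCTG, a form bound by MyoD and myogenin, in Mylpf. In Myog and Mylpf they mark CTANNNNTA, a loose pattern for MEF2 sites that allows any base at each N. The match in Mylpf, CTAAGGTTA, has G bases there and is not shown to be a MEF2 site.
Actc1: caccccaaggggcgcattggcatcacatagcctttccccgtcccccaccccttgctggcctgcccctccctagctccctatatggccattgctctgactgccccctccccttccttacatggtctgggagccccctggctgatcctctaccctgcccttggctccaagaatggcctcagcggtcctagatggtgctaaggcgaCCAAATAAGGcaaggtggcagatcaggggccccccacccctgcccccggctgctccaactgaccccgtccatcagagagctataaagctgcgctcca
Myog: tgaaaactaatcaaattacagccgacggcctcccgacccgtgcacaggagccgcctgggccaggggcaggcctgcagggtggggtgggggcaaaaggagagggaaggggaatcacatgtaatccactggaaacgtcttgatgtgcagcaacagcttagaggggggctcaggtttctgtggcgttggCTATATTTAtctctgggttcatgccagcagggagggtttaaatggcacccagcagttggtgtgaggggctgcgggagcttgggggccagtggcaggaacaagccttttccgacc
Mylpf: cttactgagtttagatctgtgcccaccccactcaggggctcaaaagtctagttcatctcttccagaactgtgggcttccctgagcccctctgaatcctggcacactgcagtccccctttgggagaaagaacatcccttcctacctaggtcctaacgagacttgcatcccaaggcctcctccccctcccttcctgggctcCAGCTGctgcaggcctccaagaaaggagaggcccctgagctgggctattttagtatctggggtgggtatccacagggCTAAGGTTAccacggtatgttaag
Matches were sought on both strands, and different motifs may overlap. The E-box CAGCTG was in the windows of 25.1% of the lowered genes that needed more than 10 ng/ml (97 of 387) and 27.8% of those lowered in 2 stages (27 of 97), against 18.1% of all genes tested with a sequence (3078 of 16990). It was in 17.6% of the raised genes that needed more than 10 ng/ml (41 of 233). CTANNNNTA was in 19.6% and 21.6% of the same 2 lowered groups, against 21.4% of all genes. The CArG box was in 2.07% and 5.15% of them, against 1.67%. A gene counted when any of its windows matched, and these 2 lowered groups had 517 windows for 387 genes and 123 for 97, against 20611 for 16990. These shares are descriptions without a test.

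Calcium handling, energy and synapse genes followed. Of 42 genes of calcium handling and muscle energy, 21 fell and 1 rose in the step, against 3.83% and 2.52% of all genes. Casq2, a calcium store protein of the sarcoplasmic reticulum, had 4.55 and 4.64 at 100 ng/ml, against 7.59 and 8.55 at 10 ng/ml (step -3.48, adjusted p = 4.81e-06). Atp2a1, the calcium pump of fast fibres, fell by 2.92, and Pygm, muscle glycogen phosphorylase, fell by 2.60. Of 17 genes of the acetylcholine receptor and synapse, 8 fell and 1 rose. The receptor subunits Chrnd and Chrng fell in 2 stages, by 1.02 and 1.07 at 10 ng/ml and by steps of -3.23 and -2.68. Their changes at 10 ng/ml were not called without replicate 1 of that dose (-0.67, adjusted p = 0.308, and -0.75, adjusted p = 0.425) or without methanol replicate 1 (adjusted p = 0.0592 and 0.121). Chrng also lost it without either untreated array, methanol replicate 2 or replicate 2 of 10 ng/ml (adjusted p = 0.0518 to 0.117). Of 28 genes of myoblast adhesion and fusion, 7 fell and 3 rose (Boc, Neo1 and Kirrel), with a median step of -0.02. Mymk, the fusion protein myomaker, had 8.84 and 10.21 at 100 ng/ml, against 11.74 and 12.29 at 10 ng/ml (step -2.49, adjusted p = 1.21e-04), and Cdh15, the myoblast cadherin, fell by 2.11. All 7 myoblast markers fell in the step, and their mean per array was 8.96 to 9.75 at 100 ng/ml against 10.8 to 10.9 at 10 ng/ml. In such bulk samples fewer muscle cells and less RNA per cell cannot be told apart.

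**Figure D4:**
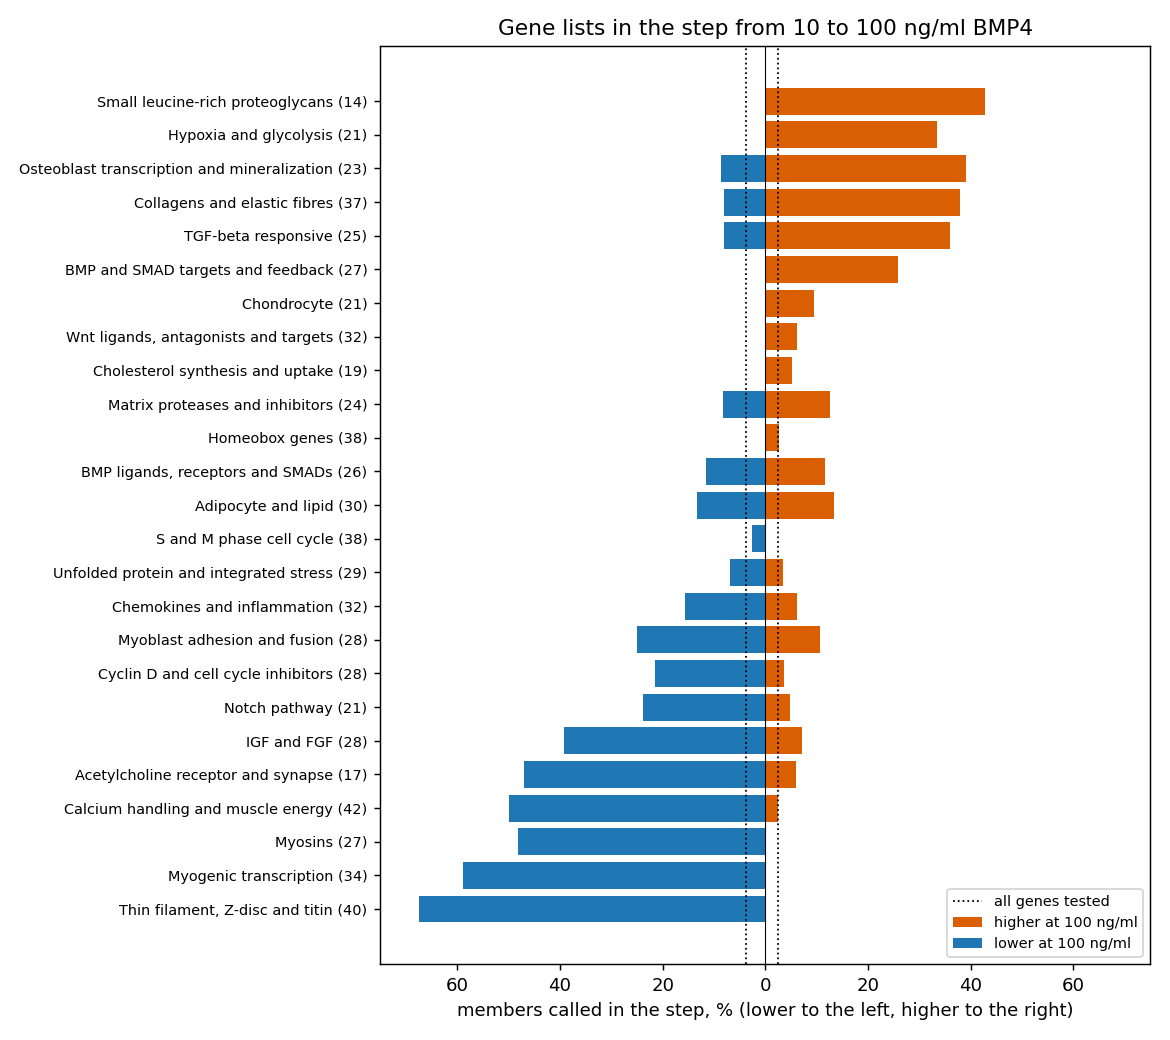
Share of each gene list called in the step, in % of its measured members (number in brackets), with genes lower at 100 ng/ml to the left and genes higher to the right. Dotted lines give the shares over all genes tested, 3.83% lower and 2.52% higher. The muscle lists extend to the left, and the proteoglycan, osteoblast and collagen lists to the right.

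The muscle microRNA miR-133b fell along with the muscle genes. Of 478 microRNA genes tested, 9 fell and 2 rose, smaller shares than the 3.83% and 2.52% over all genes. The array signal belongs to the gene or its precursor, and the mature forms were not measured. Mature forms of the 3 with the largest falls are shown from RefSeq, with miR-206, the neighbour of miR-133b on chromosome 1, and with the seed (bases 2 to 8) in capitals.
miR-133b-3p: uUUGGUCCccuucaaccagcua
miR-206-3p: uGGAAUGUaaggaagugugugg
miR-362-3p: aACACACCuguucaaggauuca
miR-532-3p: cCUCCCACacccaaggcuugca
No 2 of these share a seed. These genes were named after their values were seen. Mir133b stood at 8.12 to 8.62 in the control, 8.12 and 8.34 at 10 ng/ml, 4.56 and 6.31 at 100 ng/ml and 4.15 and 4.79 at 300 ng/ml. It needed more than 10 ng/ml, with a step of -2.80 (SE 0.35, adjusted p = 4.32e-04). Mir206, its neighbour 3686 bases away, was dim and its step was -0.86 (adjusted p = 0.0906), called without methanol replicate 1 (adjusted p = 0.00913). Mir532 and Mir362, neighbours on chromosome X, had steps of -1.72 (adjusted p = 3.73e-04) and -1.50 (adjusted p = 0.0057). For Mir362 the step was -1.15 (adjusted p = 0.0597) and -1.05 (adjusted p = 0.104) without replicate 1 of 10 and of 100 ng/ml.

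Small leucine-rich proteoglycans bind collagen fibrils. Of 14 measured members, 6 rose in the step and none fell, and 7 had risen at 10 ng/ml. Over all 22180 genes 2.52% rose and 3.83% fell in the step, and 448 had risen at 10 ng/ml. By class, 5 of the 14 rose in 2 stages, 1 was full at 10 ng/ml and 1 needed more. Fmod, fibromodulin, stood at 5.70 to 6.42 in the control, 9.78 and 8.36 at 10 ng/ml, 11.54 and 10.90 at 100 ng/ml and 11.45 and 11.44 at 300 ng/ml. Its change was 2.83 at 10 ng/ml (adjusted p = 4.6e-06) and its step 2.15 (adjusted p = 1.64e-04). Omd, osteomodulin, had the larger part in the step, 0.95 at 10 ng/ml and 2.74 in the step. The first of these was not called without replicate 1 of 10 ng/ml (0.70, adjusted p = 0.302), untreated replicate 1 (adjusted p = 0.0601) or methanol replicate 1 (adjusted p = 0.0744) or 2 (adjusted p = 0.0501). Prelp rose by 1.64 and then 1.27, though a dimmer probe set of it gave a step of 0.32, and Aspn, asporin, by 2.41 and then 1.42. The step of Aspn was 0.94 (adjusted p = 0.0969) without replicate 1 of 100 ng/ml. Lum, lumican, was the member that needed more, with 4.92 and 3.74 at 100 ng/ml, against 3.13 and 3.31 at 10 ng/ml and 6.52 and 5.98 at 300 ng/ml. Its step of 1.11 (adjusted p = 0.0191) was 0.79 (adjusted p = 0.169) and 0.55 (adjusted p = 0.295) without replicate 1 of 10 and of 100 ng/ml.

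Among the largest 2-stage rises was Sfrp2, a secreted modulator of Wnt signalling, with 5.96 to 6.10 in the control, 9.89 and 8.40 at 10 ng/ml, 11.68 and 11.20 at 100 ng/ml and 11.59 and 11.57 at 300 ng/ml. It had gained 3.09 at 10 ng/ml and gained 2.29 more in the step (SE 0.25, adjusted p = 1.69e-04), and a dimmer probe set gave 0.41. Prg4, the joint lubricant lubricin, gained 1.84 and 2.68, and Hpgd, which degrades prostaglandins, 1.66 and 2.18. Chrdl1, a secreted BMP antagonist, had 7.57 and 7.25 at 100 ng/ml, against 4.87 and 5.03 at 10 ng/ml (step 2.46, adjusted p = 1.66e-06). Fabp4, a fatty acid carrier of adipocytes, had 7.24 and 5.79, against 4.29 and 3.84 (step 2.45, adjusted p = 1.67e-04). Of the 5 adipocyte markers Fabp4 was the only one called in the step, while the steps of Pparg (0.40), Plin1 (0.17), Cidec (0.12) and Adipoq (0.10) were not. Those markers averaged 5.38 to 5.83 per array at 100 ng/ml, 4.92 to 4.99 at 10 ng/ml and 4.62 to 4.79 in the control.

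Of 37 genes of collagens and elastic fibres, 14 rose and 3 fell in the step, and 13 had risen and 4 had fallen at 10 ng/ml. Over all 22180 genes 2.52% rose and 3.83% fell in the step, and 448 had risen and 510 had fallen at 10 ng/ml. Col12a1, a fibril-associated collagen, stood at 11.40 and 11.01 at 100 ng/ml, against 10.24 and 9.22 at 10 ng/ml (step 1.48, adjusted p = 2.12e-04). Mfap5, a microfibril protein, rose by 1.17 at 10 ng/ml and 1.24 in the step. The matricellular proteins Tnc (tenascin C) and Thbs1 (thrombospondin 1) were lower than control at 10 ng/ml and higher at 100 ng/ml, as described with the genes that turned. The 5 fibroblast markers averaged 8.03 to 8.54 per array at 100 ng/ml, 7.58 to 7.61 at 10 ng/ml and 6.90 to 7.28 in the control. Of them Lum, Col1a1 and Pdgfra rose in the step, with Pdgfra at 0.88 (adjusted p = 0.018) and, without replicate 1 of 100 ng/ml or replicate 2 of 10 ng/ml, at 0.49 (adjusted p = 0.293) or 0.80 (adjusted p = 0.103). Macrophage and endothelial markers gave no call in the step by limma, with 0 of 5 each also at an unadjusted p under 0.05, and averaged under the array medians. The part of other cell types in these results was not tested.

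**Figure D5:**
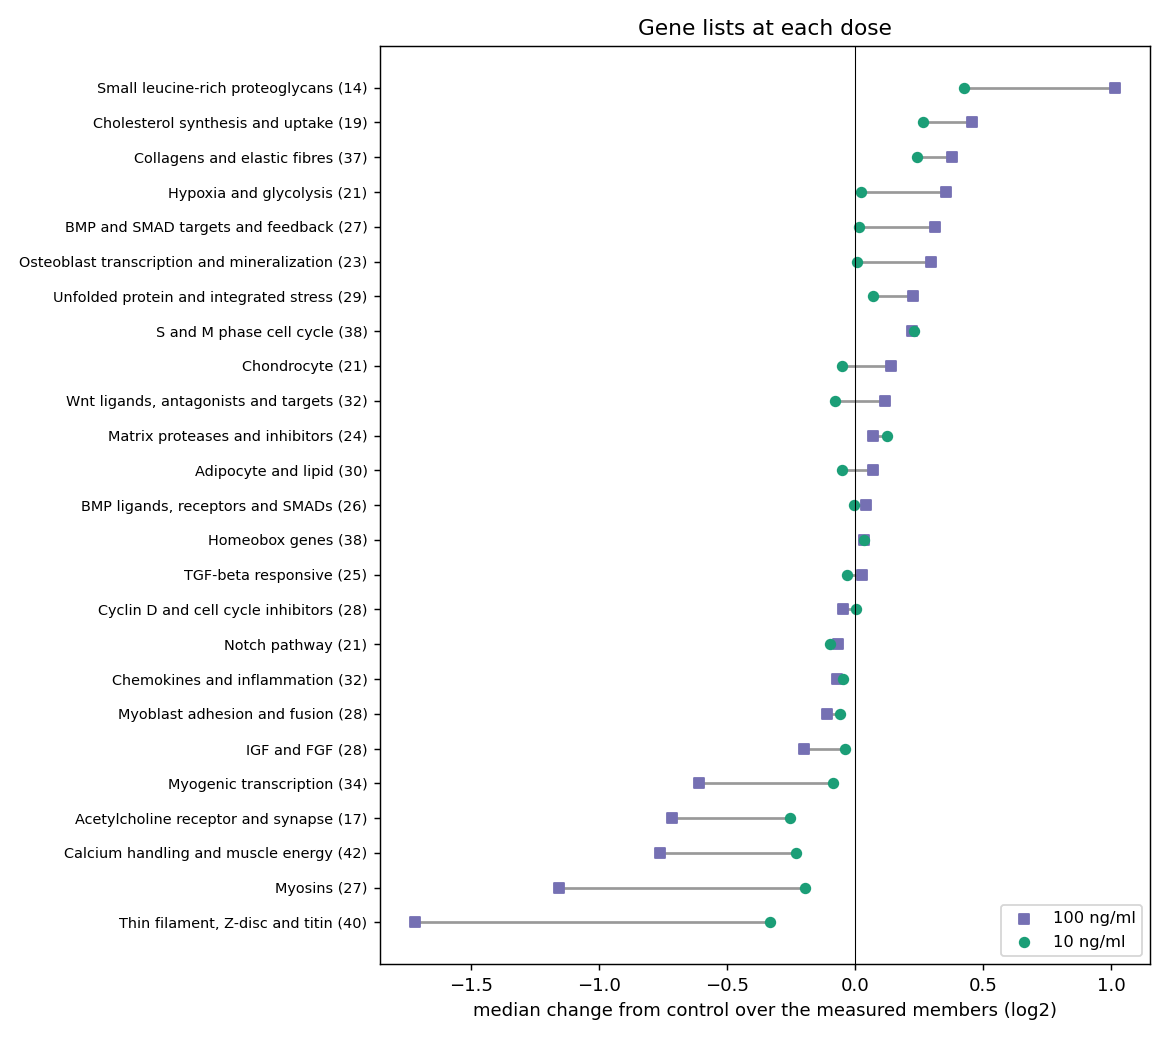
Median change from control over the measured members of each list on the log2 scale, with squares for 100 ng/ml and circles for 10 ng/ml. The thin filament list moves most between the doses, to -1.72 at 100 ng/ml, against -0.33 at 10 ng/ml, while the S and M phase list has nearly the same median at both (0.22 and 0.23).

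Genes that were already at their full change at 10 ng/ml formed a small group. Of the 157 genes called at 10 ng/ml with a change of at least 1, 48 were full, 52 went further in the same direction in the step, 15 turned back and 46 had a step that was not called but an interval too wide to call full. The 48 include 4 that also had a called step, smaller than 50% of the first change, so that these groups overlap. Car3, a carbonic anhydrase of muscle and fat, stood at 8.24 to 8.50 in the control, 11.35 and 10.89 at 10 ng/ml, 10.89 and 11.33 at 100 ng/ml and 10.68 and 11.02 at 300 ng/ml. All BMP4 arrays lay over 2 units above the control and the doses overlapped. The step was -0.01 with a 95% interval from -0.34 to 0.32, after a change of 2.73 at 10 ng/ml (adjusted p = 1.6e-07). Its relative Car2 stood at 8.54 and 9.23 at 100 ng/ml, against 9.22 and 8.78 at 10 ng/ml and 6.34 to 6.68 in the control. Aoc3, an amine oxidase of vessels and fat, gained 2.29 at 10 ng/ml, Rgs4, a regulator of G-protein signalling, 2.20, Lpl, lipoprotein lipase, 1.40, and the matrix protein Ecm2 1.34, with steps from -0.02 to 0.24. The changes of Lpl and Ecm2 were 0.74 and 0.96 without replicate 1 of 10 ng/ml, under the least change of 1 that the group requires, and without replicate 2 that of Lpl was 2.13.

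Nefl, R3hdml and Msln had the largest falls at 10 ng/ml of this group. They met the 50% limit, but each also had a downward step, given below. Nefl, the light neurofilament chain, stood at 8.50 to 9.28 in the control, 5.22 and 5.25 at 10 ng/ml, 3.98 and 4.04 at 100 ng/ml and 4.26 and 4.0 at 300 ng/ml. It had fallen by 3.73 at 10 ng/ml (adjusted p = 4.7e-08) and fell by a further 1.22 in the step (adjusted p = 8.04e-04), ending below the array medians. R3hdml and Msln (mesothelin) likewise had most of their fall at 10 ng/ml, -3.27 and -2.64, with steps of -1.20 and -0.91. Cd53, a tetraspanin known from leukocytes, had 5.07 and 5.27 at 100 ng/ml, against 5.54 and 5.24 at 10 ng/ml and 7.11 to 7.42 in the control. Nptx1, a neuronal pentraxin, fell by 1.90 at 10 ng/ml with a step of -0.15. Ankrd2, a stretch-responsive ankyrin repeat protein of muscle, had more than 50% of its fall at 10 ng/ml (-2.38) but a step of -1.90 (adjusted p = 4.32e-04), and was a 2-stage gene.

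The 14 raised genes of the full group had a median change at 10 ng/ml of 1.60 in the first run and 0.99 in the second, and a median step of -0.34 and 0.44. The rule asks for a step near 0 in the mean of both runs and leaves its sign in each run free. The 34 lowered genes had medians of -1.42 and -1.38 at 10 ng/ml and steps of -0.15 and -0.05. At 300 ng/ml the raised genes had medians of 1.29 and 1.15, against 1.31 at 100 ng/ml and 1.25 at 10 ng/ml. By contrast the raised genes that needed more than 10 ng/ml had medians of 0.03 at 10 ng/ml, 0.71 at 100 ng/ml, and 0.89 and 0.91 at 300 ng/ml, and the lowered ones -0.03, -0.64, and -0.82 and -0.76. The 300 ng/ml arrays did not enter the rules, but their changes are taken from the same control arrays that the rules used. An error in the controls would therefore move both. The first value of each pair at 300 ng/ml is from the Affyexpress-labelled array, set against controls with standard labelling. Without replicate 2 of 10 ng/ml, 84 genes counted as full and 515 as needing more than 10 ng/ml, and without replicate 1 of 100 ng/ml 287 needed more.

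In 60 genes the higher dose went against the lower one. Of these, 45 were not called at 100 ng/ml against control, 8 were still on the side of 10 ng/ml and 7 had crossed to the other side. The count is uncertain, at 111 and 135 without replicate 1 and replicate 2 of 10 ng/ml, 30 without replicate 1 of 100 ng/ml and 37 without methanol replicate 2. Rragd, a Rag GTPase of the nutrient-sensing mTORC1 pathway, stood at 6.09 to 6.40 in the control, 7.56 and 7.01 at 10 ng/ml, 5.21 and 5.87 at 100 ng/ml and 4.66 and 5.27 at 300 ng/ml. Both arrays lay above the control at 10 ng/ml and both below it at 100 ng/ml, with a change at 10 ng/ml of 1.02 (adjusted p = 0.0052; 0.63, adjusted p = 0.109, without replicate 1 of that dose) and a step of -1.75 (adjusted p = 3.52e-04). Parm1, a membrane mucin-like protein, stood at 6.13 and 6.57 at 100 ng/ml, against 7.94 and 7.82 at 10 ng/ml and 5.41 to 5.81 in the control. Enpep, the aminopeptidase that cleaves angiotensin, had 5.83 and 5.59, against 6.95 and 6.54, and Pcx, pyruvate carboxylase, 6.07 and 6.01, against 6.89 and 7.43. Mycl, of the Myc family, fell below the control, with 5.34 and 5.66 at 100 ng/ml, against 6.66 and 6.76 at 10 ng/ml and 6.19 to 6.35 in the control.

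Thbs1 and Tnc turned the other way. Thbs1 stood at 11.43 to 11.62 in the control, 11.30 and 11.27 at 10 ng/ml, 12.23 and 12.40 at 100 ng/ml and 12.25 and 12.53 at 300 ng/ml. Its fall at 10 ng/ml was small (-0.23, adjusted p = 0.035) and lost its call without replicate 2 of 10 ng/ml (-0.13, adjusted p = 0.273), untreated replicate 2 or any methanol array (adjusted p = 0.0605 to 0.0922). Its step was 1.03 (SE 0.07, adjusted p = 2.32e-06). Tnc had 11.54 and 11.06 at 100 ng/ml, against 10.20 and 10.27 at 10 ng/ml and 10.87 to 10.96 in the control (step 1.06, adjusted p = 9.89e-05). Chn2, a GTPase-activating protein of Rac, had 8.94 and 8.62, against 7.97 and 7.45, and 8.24 to 8.53 in the control.

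Growth factor genes of the IGF and FGF list held 4 of the turning genes, Igf2, Igfbp3, Fgfr4 and Igfbp4, the first 3 named after their values were seen. Of 28 measured members, 11 fell and 2 rose in the step, and 6 had risen and 6 had fallen at 10 ng/ml. Over all 22180 genes 3.83% fell and 2.52% rose in the step, and 448 had risen and 510 had fallen at 10 ng/ml. Igf2, the insulin-like growth factor that promotes myoblast differentiation, stood at 8.24 and 8.45 at 100 ng/ml, against 9.09 and 9.03 at 10 ng/ml and 7.94 to 8.13 in the control (step -0.71, adjusted p = 0.00134). Igfbp3, an IGF carrier, had 6.44 and 6.13, against 7.57 and 6.90, and 5.94 to 6.12 in the control (step -0.94, adjusted p = 0.00267). Fgfr4, an FGF receptor of myoblasts, had a step of -0.95 (adjusted p = 0.00633), and -0.63 (adjusted p = 0.125) without replicate 1 of 100 ng/ml. Igfbp4, a further carrier, was lowered at 10 ng/ml (-0.66, adjusted p = 0.0072; -0.59, adjusted p = 0.0957, without replicate 1 of that dose) and had a step of 0.60 (adjusted p = 0.0269), which was not called without either array of 10 ng/ml (0.52 and 0.67, adjusted p = 0.128 and 0.0599) or replicate 1 of 100 ng/ml (0.29, adjusted p = 0.383). Igfbp5, another carrier, needed more than 10 ng/ml, with 9.34 and 10.46 at 100 ng/ml, against 11.62 and 11.64 at 10 ng/ml (step -1.73, adjusted p = 1.82e-04). Dusp6, a phosphatase that limits FGF signalling through ERK, fell in 2 stages, by 1.12 and by a step of -1.11, though a dimmer probe set gave -0.17.

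Some lists had few calls in the step, though a missing call does not show that a gene stayed level. Of 38 S and M phase genes 1 fell, E2f8 (-0.88, adjusted p = 0.00848), and none rose, close to the share over all genes. The step of E2f8 was -0.50 (adjusted p = 0.106) without replicate 1 of 100 ng/ml and -0.86 (adjusted p = 0.0571) without replicate 2 of 10 ng/ml. Against the control, 15 of the 38 had risen at 100 ng/ml and 6 at 10 ng/ml. Over all 22180 genes 1848 and 448 had risen. Of 19 cholesterol genes 1 rose in the step (Tm7sf2), with 12 risen at 100 ng/ml and 3 at 10 ng/ml against the control, and of 38 homeobox genes 1 rose (Prrx2). Without replicate 1 of 100 ng/ml or replicate 2 of 10 ng/ml neither was called: Tm7sf2 had 0.58 in all arrays and 0.42 (adjusted p = 0.418) or 0.43 (adjusted p = 0.209), and Prrx2 had 0.66 and 0.42 (adjusted p = 0.396) or 0.45 (adjusted p = 0.206). Tm7sf2 also lost its call without untreated replicate 2 or any methanol array (adjusted p = 0.0611 to 0.0742), and Prrx2 without methanol replicate 2 (adjusted p = 0.0563). Of 32 Wnt genes the 2 called were Sfrp2 and Nkd2, and of 21 chondrocyte genes they were Prg4 and Col2a1. The step of Col2a1 was 1.13, and 0.52 (adjusted p = 0.296) and 0.75 (adjusted p = 0.19) without replicate 1 of 100 and of 10 ng/ml. By limma 9 of the 19 cholesterol, 6 of the 21 chondrocyte and 7 of the 32 Wnt genes had an unadjusted p under 0.05 in the step. It was 2 of 38 for both the S and M phase and the homeobox genes, against 3873 of all 22180. The step was negative in 2 of the cholesterol, 2 of the chondrocyte and 6 of the Wnt genes, against 42.9% of all genes. The 9 measured housekeeping genes gave no call in the step by limma, with 2 at an unadjusted p under 0.05.

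Hypoxia, TGF-beta and Notch genes moved in part, to be read against 2.52% risen and 3.83% fallen over all genes. Of 21 hypoxia and glycolysis genes 7 rose and none fell, led by Ndrg1, a stress-responsive gene, with 10.86 and 10.36 at 100 ng/ml, against 9.86 and 9.18 at 10 ng/ml (step 1.10, adjusted p = 2.7e-05). Ero1a, an oxidase of protein folding, rose by 0.70 (adjusted p = 6.52e-04). Dimmer probe sets gave smaller steps, 0.52 for Ndrg1 and 0.28 for Ero1a. Of 25 TGF-beta responsive genes 9 rose and 2 fell. Cnn1, the smooth muscle calponin, had 9.13 and 8.36 at 100 ng/ml, against 7.65 and 6.14 at 10 ng/ml, a step of 1.85 (adjusted p = 0.00161) that was 1.23 without replicate 2 of 10 ng/ml. Itga11, a collagen-binding integrin, rose by 0.97 (adjusted p = 0.00368). Of 21 Notch genes 5 fell and 1 rose, and the receptor Notch1 had 7.70 and 8.09 at 100 ng/ml, against 8.43 and 9.08 at 10 ng/ml (step -0.86, adjusted p = 0.00277).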

How the data were processed

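The deposited values are log2 signals of Affymetrix arrays, made by the authors with RMA in Partek 6.5, per the submitters' processing notes. No source used here says whether a correction for labelling was applied. Of 41345 probe sets, 23521 have 1 gene symbol, 1814 several and 16010 none. For the 1082 genes with several probe sets the one with the highest mean was used, which left 22180 genes.

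limma 3.58.1 in R 4.3.3 (lmFit, eBayes with a trend on mean signal) was fitted to 9 arrays with standard labelling: 2 at 100 ng/ml, 2 at 10 ng/ml and 5 controls, with the run of label numbers as a block (5 residual degrees of freedom). Benjamini-Hochberg adjustment ran over all 22180 genes. The code was tested on simulated data. Nothing in the labels says that replicate arrays are separate cultures. The p-values therefore cover only variation among these arrays, possibly technical, and the number of arrays limits precision. The pairing by run comes from the label numbers alone: deviations from group means correlated at 0.117 between 100 and 10 ng/ml, and between -0.044 and 0.388 over the pairs of groups. The labels do not call a run a batch.

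Named genes were the 12 largest rises and 12 largest falls with arrays that do not overlap, up to 8 per class and direction, up to 4 per list, and a fixed set of pathway and muscle genes. Further list members, Phex, Igf1, Igf2, Igfbp3, Fgfr4, Ankrd2 and the microRNAs were named after their values were seen. Members and lists were chosen with earlier results of these data known. Leaving out each array was also applied to the list members and changes at 10 ng/ml printed. Alternatives changed the block, control, trend, probe set rule, filter, scaling, limits and arrays in the fit. Sequences are from RefSeq (GRCm38.p6).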

Additional observations from a re-analysis of the deposited data

Results flagged for a closer look

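Of 160 named genes, 9 had steps of at least 0.2 in opposite directions in the 2 runs, downwards in the first and upwards in the second. The step of the second run minus that of the first was 1.839 for Phex, 1.206 for Lpl, 1.118 for Car2, 1.094 for Id1, 1.028 for Id2, 0.936 for Aoc3, 0.898 for Car3, 0.787 for Gm5424 and 0.6 for Rgs4. These differences were not tested, since each run held 1 array of each dose.

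Probe sets without a gene symbol were used in no comparison above. In a fit over all probe sets, 72 of 16010 of them (0.45%) were called in the step, 23 higher and 49 lower at 100 ng/ml.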

How the results depend on the processing

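Of 153 named results with a call, 93 kept it under every setting in which they could be computed. Without the replicate block, the counts were 787 genes called in the step, 547 called at 10 ng/ml, 463 needing more than 10 ng/ml, 115 in 2 stages and 25 turning back, and all 787 were among the 1408. Without the trend they were 837, 549, 506, 104 and 27. With untreated arrays alone as the control, 598 genes were called at 10 ng/ml, 146 changed in 2 stages and 33 turned back. With arrays centred on their medians 38 turned back, and with an interval limit of 75% 82 genes counted as full. Quantile normalization made 48.3% of the calls rises (738 against 791 falls). Leaving out 1 array at a time gave 529 to 1497 genes called in the step, 287 to 1016 needing more, 32 to 84 full, 115 to 297 in 2 stages, 30 to 135 turning back, 2365 to 4604 called at 100 ng/ml and 602 to 1254 at 10 ng/ml. The lowest of the first 2 ranges came without replicate 1 of 100 ng/ml. These ranges give sizes only. Leaving out 1 array of 10 or 100 ng/ml also changed which genes needed more, were full or turned back. Leaving out 1 array reversed the mean step of 4 named genes: the range was -0.687 to 1.123 for Id1, -0.504 to 1.067 for Id2, -0.102 to 0.914 for Id3 and -1.126 to 0.568 for Phex, which stood at 0.064 without replicate 1 of 100 ng/ml. The cause was not tested. A fit of the 4 arrays of the step alone called 1235 genes, with 1 residual degree of freedom.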
